A study of Mus musculus with 7 samples.

Results

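The vacuolar ATPase is described here through 10 of its subunit genes in mouse liver, of 19938 genes with a probe set of their own on the array. The members were Atp6v0d2, Atp6v0d1, Atp6v0a1, Atp6v0a2, Atp6v1a, Atp6v1b2, Atp6v1c1, Atp6v1d, Atp6v1e1 and Atp6v1h, and each had at least 1 probe set that carried its symbol alone. Where a gene had several such probe sets, the brightest by the mean of the 7 arrays was read. Atp6v0d2 had been selected on its difference between these same groups and the other 9 subunits were set beside it with that difference known, so the values of Atp6v0d2 are given as a description without a test.

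RNA of a left liver lobe fragment was hybridised to a whole-transcript array from 4 control and 3 Trpm6-deficient mice, with 1 array per mouse. All were male littermates on a C57BL/6 background. The control mice were Trpm6 fl/+, with 1 floxed allele and no deletion. The Trpm6-deficient mice, labelled mutant, were Trpm6 Δ17/Δ17;Sox2-Cre, which lack exon 17 of Trpm6 in the whole body because Sox2-Cre is active in the early epiblast. Controls 1 and 2 and mutant 2 were 12 weeks old, and controls 3 and 4 and mutants 1 and 3 were 13 weeks old. Trpm6, the gene of the magnesium channel kinase that was deleted, was listed at 5.50 to 5.53 in control and 5.37 to 5.50 in mutant livers, a log2 change of -0.05 (standard error, SE, 0.05, with limma giving an adjusted p of 0.882). The exons read by this probe set were not looked up, and its values lay below the array median in control livers too. The value is therefore no check of the labels. The 10 hepatocyte markers had mean levels between 12.63 and 14.38, against array medians of 6.43 to 6.48, so the markers of the labelled tissue were present.

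The vacuolar ATPase is a rotary proton pump that acidifies lysosomes, endosomes and secretory vesicles, and in some specialised cells it pumps acid across the plasma membrane. Its V1 head, in the cytosol, hydrolyses ATP and turns a central rotor, and its V0 sector, in the membrane, carries protons as its ring of proteolipids turns. The d subunit sits at the junction where the rotor of V1 meets the ring of V0. Mice have a d1 form that is present in nearly all tissues and a d2 form known from osteoclasts, kidney and some macrophages. In liver the pump is known mainly for the lysosomes of hepatocytes and Kupffer cells and for acidification of the endosomes through which receptors are recycled.

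Atp6v0d2, the gene of the tissue-restricted d2 subunit, was far higher in the Trpm6-deficient livers. Its log2 values were 6.23, 6.89, 6.79 and 6.13 in controls 1 to 4, and 10.22, 9.47 and 9.22 in mutants 1 to 3. The groups did not overlap, and mutant 1 was the highest of the 7 livers. The lowest mutant value lay 2.33 above the highest control value, while the control values spanned 0.76 and the mutant values 1.00. The control mean was 6.51 ± 0.39 (SD, n = 4) and the mutant mean 9.64 ± 0.52 (SD, n = 3), which gives a log2 change of 3.13 (SE 0.30, 95% interval 2.40 to 3.85), or 8.73-fold. Of the 35556 probe sets on the array, 6 had a larger positive change. The control values lie around the array medians, and whether they are above background was not examined. If they are background, the fold is a lower bound. The difference was 2.91 between the 1 mutant and 2 control livers of 12 weeks and 3.26 between the 2 mutant and 2 control livers of 13 weeks. In whole liver, more cells that carry a transcript and more of it per cell cannot be told apart.

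**Figure D1:**
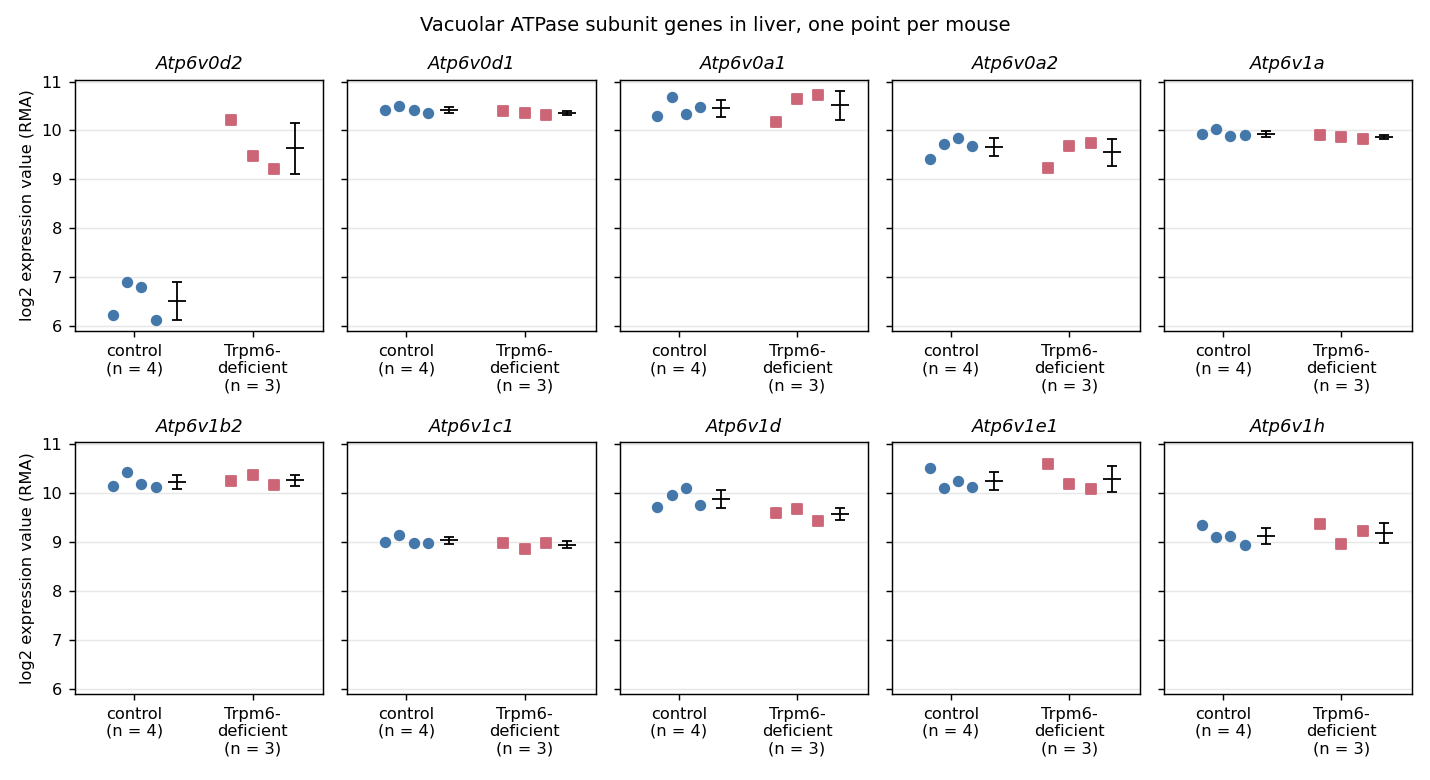
Log2 expression value of the 10 vacuolar ATPase subunit genes in each liver, with controls as blue circles and Trpm6-deficient livers as red squares, and with the mean and SD of each group in black. Atp6v0d2 lies between 6.13 and 6.89 in controls and between 9.22 and 10.22 in mutants, and Atp6v1d is the other gene whose groups do not overlap, between 9.71 and 10.11 in controls and between 9.44 and 9.68 in mutants.

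The ubiquitous counterpart of d2 showed no change of that size. Atp6v0d1 was at 10.42, 10.51, 10.42 and 10.36 in the controls and at 10.40, 10.35 and 10.32 in the mutants. The groups overlapped over a narrow span, with means of 10.43 ± 0.06 (SD, n = 4) and 10.36 ± 0.04 (SD, n = 3). Its log2 change was -0.07 (SE 0.05, 95% interval -0.20 to 0.05), and it did not pass limma's test (adjusted p = 0.856). The change of Atp6v0d2 exceeded that of Atp6v0d1 by 3.20. Liver by liver, the difference of Atp6v0d2 from its control mean exceeded that of Atp6v0d1 by 3.74, 3.04 and 2.82 in mutants 1 to 3. In each of the 3 mutant livers the d1 value was below its own control mean. These are differences within each probe set. The levels of d1 and d2 come from different probes and are not set against each other.

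Of all 35556 probe sets 46 passed limma's test with an adjusted p up to 0.1, 27 higher and 19 lower, which is 0.129% (7 calls without control 3 to 69 without mutant 1). None of the 9 members other than Atp6v0d2 did (adjusted p = 0.673 to 0.982), a count that the background share alone would also give. At an unadjusted p up to 0.05, 0 of the 9 were higher, where 3.85% of all probe sets were, and 1 was lower, Atp6v1d, where 3.03% were. Groups that did not overlap were seen for 1 of the 9, again Atp6v1d, and for 5.33% of all probe sets. The 9 changes had a median of -0.07, with 4 above 0 and 5 below, against a median of 0 for all probe sets (quartiles -0.08 and 0.08). The 95% intervals of the 9 changes together ran from -0.60 to 0.45. None reached the change of Atp6v0d2, but that gene was selected on its difference, so this is no result about the 9. Of all probe sets, 91.4% had an absolute log2 change under 0.35. The p-values set each group difference against the spread between these mice, which limma draws in part from all probe sets.

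**Figure D2:**
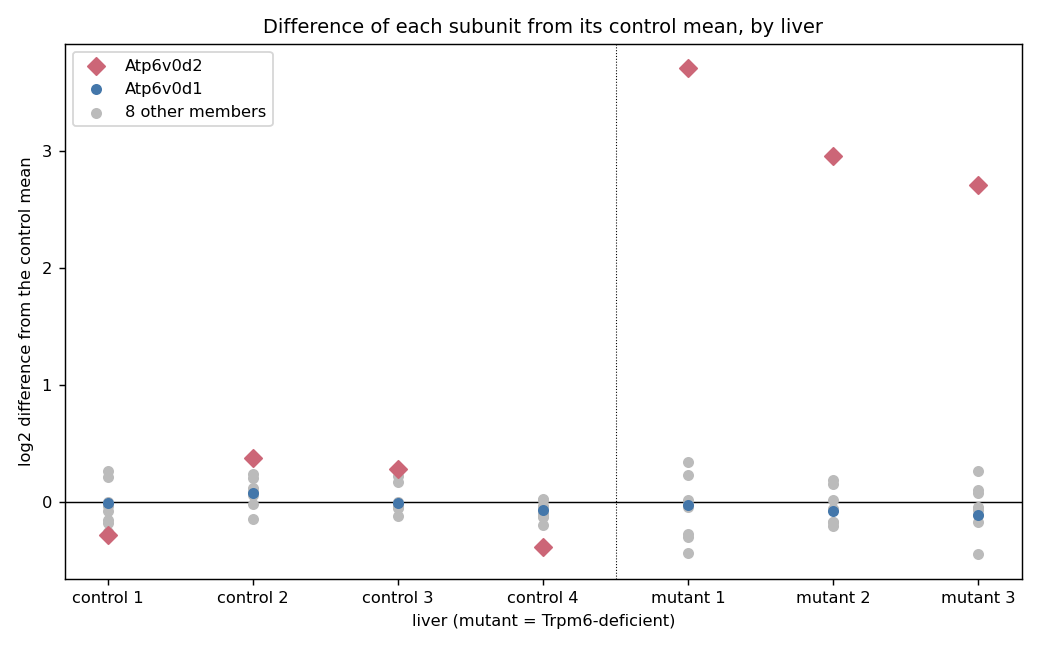
Log2 difference of each subunit gene from its own control mean, by liver, with Atp6v0d2 as red diamonds, Atp6v0d1 as blue circles and the 8 other members as grey circles. In mutants 1 to 3 Atp6v0d2 lies at 3.71, 2.96 and 2.71, while the 27 mutant values of the other 9 genes lie between -0.45 and 0.34.

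In the V0 sector, the a subunits form the path by which protons enter and leave the ring and direct the pump to its membrane. Atp6v0a1, which encodes the a1 form, was at 10.30, 10.69, 10.33 and 10.48 in the controls and at 10.18, 10.64 and 10.72 in the mutants. The mutant livers held both the lowest and the highest of these values, and the log2 change was 0.06 (SE 0.16, 95% interval -0.32 to 0.45, adjusted p = 0.964). Atp6v0a2, which encodes the a2 form of Golgi and endosomes, had 2 probe sets. The brighter one was at 9.41, 9.73, 9.84 and 9.68 in the controls and at 9.23, 9.68 and 9.74 in the mutants, a log2 change of -0.12 (SE 0.16, adjusted p = 0.920). The dimmer one differed in sign, with 9.17, 9.16, 9.01 and 8.99 in the controls and 9.19, 9.23 and 9.24 in the mutants. Its groups did not overlap by a margin of hundredths, and its log2 change of 0.14 (SE 0.06) did not pass either (adjusted p = 0.770). For Atp6v0a2 the direction therefore depends on the probe set.

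In the V1 head, the A and B subunits form the ring that binds and hydrolyses ATP. Atp6v1a, the catalytic A subunit gene, was at 9.93, 10.02, 9.88 and 9.90 in the controls and at 9.91, 9.87 and 9.82 in the mutants. Its log2 change was -0.07 (SE 0.05, 95% interval -0.19 to 0.06, adjusted p = 0.866). Atp6v1b2, the B subunit gene of most tissues, was at 10.15, 10.43, 10.19 and 10.13 in the controls and at 10.24, 10.38 and 10.16 in the mutants, a log2 change of 0.04 (SE 0.09, 95% interval -0.19 to 0.26, adjusted p = 0.965). For both genes of the ATP-hydrolysing ring the groups overlapped.

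The D subunit is the shaft of the rotor, and it turns together with the d subunit and the ring below it. Atp6v1d had the largest change in size of the 9, toward lower values. It was at 9.71, 9.97, 10.11 and 9.76 in the controls and at 9.59, 9.68 and 9.44 in the mutants. Every mutant value was below every control value, although mutant 2 lay close to control 1. The log2 change was -0.32 (SE 0.12, 95% interval -0.60 to -0.04), with an unadjusted p of 0.0313 from limma and an adjusted p of 0.673 over all probe sets, so it did not pass. The difference was -0.16 between the livers of 12 weeks and -0.42 between those of 13 weeks.

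The remaining V1 members belong to the stator and to its control. Atp6v1c1, the gene of the C subunit that joins head and membrane sector during assembly, was at 8.99 to 9.15 in the controls and at 8.86 to 8.99 in the mutants, a log2 change of -0.09 (SE 0.06, adjusted p = 0.856). Atp6v1e1, a gene of the peripheral stalks, was at 10.52, 10.11, 10.24 and 10.13 in the controls and at 10.59, 10.19 and 10.08 in the mutants, a log2 change of 0.04 (SE 0.16, adjusted p = 0.982). Atp6v1h, whose product keeps free V1 from wasting ATP, was at 9.34, 9.11, 9.13 and 8.93 in the controls and at 9.36, 8.96 and 9.23 in the mutants, a log2 change of 0.06 (SE 0.13, adjusted p = 0.960). Control 1 and mutant 1 were the highest of their groups for both Atp6v1e1 and Atp6v1h. They were the lowest of their groups for Atp6v0a1 and for the brighter Atp6v0a2 probe set. Atp6v0d2 did not share this split, since it was low in control 1 and highest in mutant 1. Nor did the dimmer Atp6v0a2 probe set, where control 1 was the highest control (9.17) and mutant 1 the lowest mutant (9.19).

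Promoter windows from RefSeq (build GRCm38.p6, from 250 bases before to 50 bases after the start, 300 in all) were given for 5 of the 10 members, Atp6v0d1, Atp6v0a1, Atp6v1a, Atp6v1d and Atp6v1e1. They were searched for CACGTG, the E-box core that factors of the MiT and TFE family bind in many lysosomal genes, which reads the same on both strands, and for the longer TCACGTGA, which contains that core. The windows of Atp6v0d1 and Atp6v1a each held both, and the other 3 held neither. The core was in 2349 of 32851 windows of the same length (7.15%) and the longer form in 320 (0.974%). No other promoter feature was searched for, and no window was given for Atp6v0d2. The stretch around each match is shown with the core in capitals. The Atp6v0d1 stretch lies at chr8:105566050-105566079 on the minus strand, its core starting 3 bases before the start of the gene, and the Atp6v1a stretch lies at chr16:44139373-44139402 on the minus strand, its core starting 131 bases before the start.
Atp6v0d1: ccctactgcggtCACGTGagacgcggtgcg
Atp6v1a: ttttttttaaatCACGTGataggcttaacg
A match describes these letters and no binding. The 2 genes with the motif had log2 changes of -0.07 and -0.07, and the 3 without it had changes of 0.06, -0.32 and 0.04.

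Among the other subunit genes of the complex none passed the test. Of 15 listed, 14 were measured, since Atp6v0c had no probe set with its symbol alone. By limma, 0 of the 14 reached an unadjusted p of 0.05, and none had groups that did not overlap. Of all probe sets, 3.85% were higher and 3.03% lower at that p, and 5.33% had groups that did not overlap. The log2 changes of the 14 ran from -0.32 to 0.09 with a median of -0.01 (adjusted p = 0.759 to 0.979). The lowest was Atp6v0b, a proteolipid of the V0 ring, at 10.57, 10.71, 10.94 and 10.61 in the controls and 10.57, 10.49 and 10.11 in the mutants, a log2 change of -0.32 (SE 0.14, adjusted p = 0.759). Its groups met at 10.57, the value of control 1 and of mutant 1. Among the accessory V0 proteins, Atp6ap2, the prorenin receptor, had a log2 change of -0.17 (adjusted p = 0.820), and Atp6ap1, which helps to assemble and target the pump, one of 0.08. The small e subunit genes Atp6v0e and Atp6v0e2 had changes of 0.09 and -0.13. In V1, the rotor subunit gene Atp6v1f had a change of -0.06 and the stalk subunit gene Atp6v1g1 one of 0.05.

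The a3 subunit, encoded by Tcirg1, works with d2 in the osteoclast pump. Tcirg1 had a log2 change of 0.07 (SE 0.08, 95% interval -0.11 to 0.25, adjusted p = 0.903). Of the 6 other tissue-restricted isoform genes none was called, with changes between -0.12 and 0.06 (adjusted p = 0.856 to 0.979). They were Atp6v0a4 (0.01) and Atp6v1b1 (-0.03), both of the acid-secreting cells of the kidney, and Atp6v1c2 (-0.06). The others were Atp6v1e2 (0.06), a form of testis, Atp6v1g2 (0.04), a form of neurons, and Atp6v1g3 (-0.12), a kidney form. Atp6v0a4 was listed at 6.21 on 6 of the 7 arrays and at 6.24 in mutant 3.

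**Figure D3:**
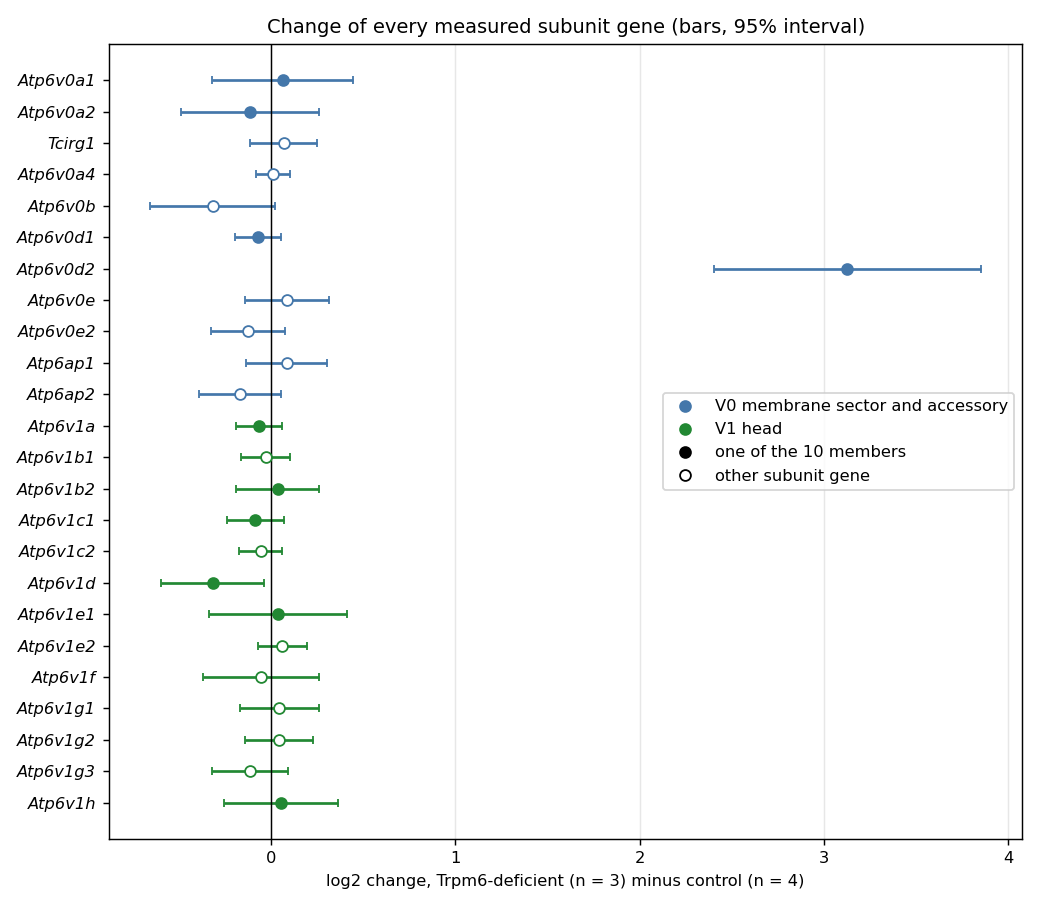
Log2 change of the 24 measured subunit genes, Trpm6-deficient minus control, with 95% intervals from limma, V0 and accessory genes in blue, V1 genes in green, and the 10 members as filled points. Atp6v0d2 lies at 3.13, and the other 23 lie between -0.32 and 0.09.

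Genes that assemble or regulate the pump were looked at next. Of 16 listed, 15 were measured and none passed limma's test, with 0 higher and 3 lower at an unadjusted p up to 0.05. Of all probe sets, 3.85% were higher and 3.03% lower at that p. The lowest by p were Dmxl2 and Wdr7, which encode the components of rabconnectin-3, a complex that helps V1 to join V0. Dmxl2 was at 9.17, 8.95, 9.30 and 8.99 in the controls and at 8.53, 8.83 and 8.65 in the mutants, a log2 change of -0.43 (SE 0.11, adjusted p = 0.488). Wdr7 was at 9.09, 9.19, 9.24 and 9.27 in the controls and at 9.06, 8.98 and 8.91 in the mutants, a log2 change of -0.21 (SE 0.06, adjusted p = 0.587). For both the groups did not overlap. These were the only 2 of the 15 without overlap, against 5.33% of all probe sets. A second probe set of Dmxl2 had a change of -0.41 (adjusted p = 0.685), with overlapping groups.

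The pump also serves as a platform for the amino acid sensing machinery of mTORC1 on the lysosome. None of the 16 genes listed for it passed, with 0 higher and 2 lower at an unadjusted p up to 0.05. Over the whole array, 3.85% of probe sets were higher and 3.03% lower at that p. Fnip1, a partner of folliculin, was at 9.62, 9.63, 9.62 and 9.62 in the controls and at 9.53, 9.07 and 9.0 in the mutants (log2 change -0.42, SE 0.13, adjusted p = 0.600). Flcn, which encodes folliculin, was at 8.35, 8.27, 8.25 and 8.25 in the controls and at 8.28, 7.63 and 7.82 in the mutants (log2 change -0.37, SE 0.15, adjusted p = 0.712). In both genes mutant 1 stayed near the controls and mutants 2 and 3 were low, whereas Atp6v0d2 was highest in mutant 1.

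None of the 8 listed transcription factors of lysosomal genes passed. None of the 8 reached an unadjusted p of 0.05 from limma, where 3.85% of all probe sets were higher and 3.03% lower. The smallest p were those of Zkscan3, a repressor of lysosomal genes (log2 change -0.29, SE 0.15, adjusted p = 0.799), and of Mitf (log2 change -0.15, SE 0.10, adjusted p = 0.851), a factor of osteoclasts and of lysosomal genes. Tfeb, the factor best known for lysosomal genes, had a log2 change of 0.02 (adjusted p = 0.989), and Nfatc1, the leading factor of osteoclasts, one of -0.01 (adjusted p = 0.982).

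Of 52 listed lysosomal enzymes and membrane proteins, 46 were measured and none passed, with 4 higher and 6 lower at an unadjusted p up to 0.05 and a median log2 change of 0.00. The smallest p was that of Arsa, the arylsulfatase that degrades sulfatide. It was at 8.58, 8.62, 8.81 and 8.78 in the controls and at 8.27, 8.17 and 8.14 in the mutants (log2 change -0.50, SE 0.08, adjusted p = 0.171). Ctsd, the gene of the aspartic protease cathepsin D, was at 11.63, 11.77, 11.75 and 11.78 in the controls and at 12.12, 11.94 and 12.01 in the mutants (log2 change 0.29, SE 0.06, adjusted p = 0.385). The values of the 2 genes differed in opposite directions, and the groups overlapped for neither. Over the 46 genes, the groups did not overlap for 6 that were higher and 5 that were lower, against 5.33% of all probe sets. At an unadjusted p up to 0.05 from limma, 3.85% of all probe sets were higher and 3.03% lower.

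Since d2 is known from osteoclasts, fused macrophages and kidney intercalated cells, markers of these cells were read beside it. Of 13 osteoclast and fused macrophage markers 12 were measured, and none passed or reached an unadjusted p of 0.05. Their summed level on the log2 scale was 11.78 to 11.92 in control and 11.60 to 11.80 in mutant livers. Of the 12, 6 were below the array median on all 7 arrays, among them Ctsk, Dcstamp and Calcr (5.08 to 5.86), and 5 were above it on all 7, Acp5 (10.91 to 11.35), Tyrobp, Ocstamp, Itgb3 and Trem2. Acp5, the tartrate-resistant acid phosphatase, is the brightest of the list and leads its sum. Of the 7 kidney intercalated cell markers none passed. Their summed levels were 9.68 to 10.34 in control and 9.51 to 9.82 in mutant livers, led by the ammonia transporter gene Rhbg (8.15 to 9.84). Of these 7 markers, 3 were below the array median on all 7 arrays and 2, Rhbg among them, were above it on all 7. By the unadjusted p 2 of the 7 were higher, the anion exchanger genes Slc4a9 (log2 change 0.38, adjusted p = 0.710, groups not overlapping) and Slc26a4 (0.22, adjusted p = 0.638). Of all probe sets, 3.85% were higher and 3.03% lower by that p, and 5.33% had groups that did not overlap. None of the 19 Kupffer cell and macrophage markers passed either, and 1, Lyz1, was lower by the unadjusted p. Their summed level was 12.88 in control 1, 13.68 to 13.91 in controls 2 to 4 and 13.08 to 13.33 in mutant livers. Of the 19, 16 had a change below 0, with a median of -0.28. The part of these cells in the values of Atp6v0d2 was not tested.

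Control 1 had the lowest Kupffer cell and sinusoidal endothelial levels of the controls and mutant 1 the lowest of the mutants. These livers were also low for Atp6v0a1 and for the brighter Atp6v0a2 probe set, but control 1 was not low for the dimmer one. The summed level of the 7 sinusoidal endothelial markers was 12.04 in control 1, 13.02 to 13.22 in controls 2 to 4 and 12.31 to 12.93 in mutant livers. All 7 had a change below 0 (median -0.21), none with an unadjusted p up to 0.05, and their part in the values of Atp6v0a1 and Atp6v0a2 was not tested. The summed hepatocyte markers lay at 17.12 to 17.26 in control and 17.15 to 17.25 in mutant livers, those of 7 stellate cell markers at 11.29 to 11.65 and 11.43 to 11.56, and those of 5 measured of 7 cholangiocyte markers at 9.13 to 9.41 and 9.20 to 9.48. None of these genes passed limma's test, and by the unadjusted p 2 stellate cell markers and 1 cholangiocyte marker were higher and none was lower. By the same p, 3.85% of all probe sets were higher and 3.03% lower.

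**Figure D4:**
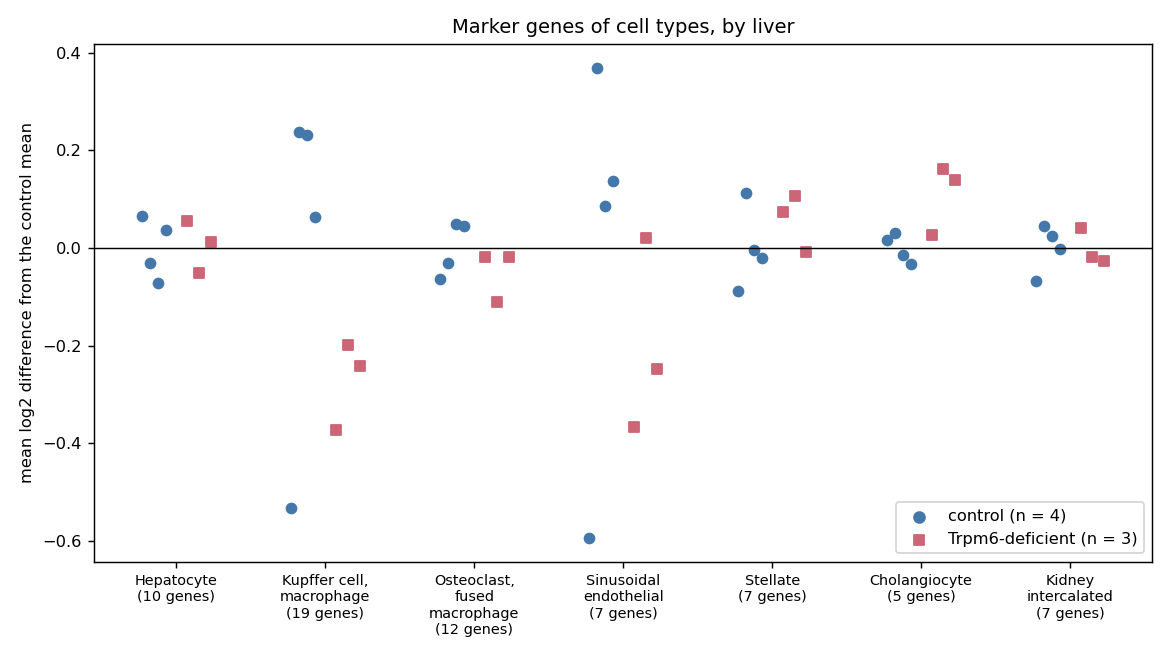
Marker genes of each cell type, by liver, as the mean of their log2 differences from the control mean, with controls as blue circles and Trpm6-deficient livers as red squares. Osteoclast and fused macrophage markers lie between -0.06 and 0.05 in controls and between -0.11 and -0.02 in mutants, and Kupffer cell and macrophage markers between -0.53 and 0.24 and between -0.37 and -0.20.

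The genes whose pattern over the 7 livers was most like that of Atp6v0d2 were found by the mean absolute difference between their deviations from the control mean and those of Atp6v0d2. They were Slc16a5 (0.372 on the log2 scale), Slc22a27 (0.440), Cyp2b10 (0.480), Cyp2c39 (0.486) and Acot3 (0.528). None is a gene of the pump. Slc16a5 belongs to the monocarboxylate transporter family, Slc22a27 to the organic anion transporters, Cyp2b10 and Cyp2c39 to the cytochromes P450, and Acot3 encodes an acyl-CoA thioesterase. Slc16a5, the nearest, was at 6.93, 7.50, 7.44 and 6.72 in the controls and at 8.71, 10.27 and 10 in the mutants. In controls 1 and 4 it was low and in controls 2 and 3 high, as was Atp6v0d2. All 5 genes were highest in mutant 2, whereas Atp6v0d2 was highest in mutant 1. The likeness is a description over 7 livers of genes that were searched for it.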

How the data were processed

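GeneChip Mouse Gene 1.0 ST arrays were background corrected, normalized and summarized per probe set by the authors in Affymetrix Expression Console 1.4.0 with RMA, per the labels, and log2 values with 2 decimals were deposited. RMA equalises the distributions of the arrays, so a shift of all genes would not be seen. The genome build behind the probe set annotation was not given in the sources used here. The platform annotation gave 1 symbol for 21789 probe sets, several for 1621 and none for 12146. The log2 values were fitted with limma 3.58.1 (R 4.3.3) over all 35556 probe sets without a covariate or filter. Benjamini-Hochberg adjustment was used with a threshold of 0.1. The estimates of known log2 changes were checked on simulated data, which is no check of the calls made here. The number of arrays limits the precision. Members and lists were chosen with earlier results of these data known. Named were all members, every measured subunit gene, of each further pathway list the called genes or else the 2 with the smallest p, and the 5 genes most like Atp6v0d2. A few list genes and markers outside this rule were named after their values were seen. Age, a filter on low values, quantile normalization, a variance trend, an ordinary t-test with equal variances, a replicate block, the probe set rule, the threshold and leaving out each array were tried as alternatives. Slides and scan dates were not analysed here.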

Additional observations from a re-analysis of the deposited data

Results flagged for a closer look

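The 32 genes looked at were the members, other subunits and named pathway genes. Among the 4 control livers, 1 array stood apart for 8 of them, not the same array each time, where chance flags about 1 in 20. The measure is the gap of the outermost value to its neighbour as a share of the whole control range. It was 0.938 for Atp6v1c1, the one member among them, with control 2 at 9.15 and the others at 8.99 to 9.0. It was 1.00 for Atp6v0e (control 1 at 10.08, the others at 10.29), for Atp6v0e2 (control 3 at 7.45, the others at 7.18), for Atp6v1g3 (control 1 at 5.47, the others at 5.21) and for Fnip1 (control 2 at 9.63, the others at 9.62). It was 0.923 for Atp6v1e2 (control 3 at 6.56, the others at 6.68 to 6.69), 0.875 for Atp6v1c2 (control 4 at 6.02, the others at 5.94 to 5.95) and 0.875 for Atp6v1g2 (control 3 at 8.18, the others at 8.02 to 8.04). Values are given to 2 decimals, and in several of these genes the other controls had identical values. No control stood apart for Atp6v0d2.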

How the results depend on the processing

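Atp6v0d2 kept its log2 change of 3.13 within its spread between livers under the alternatives run (2.84 without mutant 1 to 3.34 without mutant 3), and its excess over Atp6v0d1 was 2.93 to 3.39 when 1 array was left out. Of the 9 other members none was called when any 1 array was left out (0 to 0 calls), and the smallest adjusted p over the alternatives was 0.559. None was called by an ordinary t-test, adjusted or not, and 1 was at an unadjusted p up to 0.05 from limma. Their median moved from -0.07 to 0.011 when the probe sets of a gene were averaged, and ran from -0.09 to -0.04 when 1 array was left out. Atp6v0d1, Atp6v1a, Atp6v1c1 and Atp6v1d stayed below 0 under the alternatives run. Averaging probe sets turned Atp6v0a2 to 0.011. Leaving out 1 array gave ranges of -0.04 to 0.23 for Atp6v0a1, -0.21 to 0.045 for Atp6v0a2, -0.025 to 0.10 for Atp6v1b2, -0.12 to 0.14 for Atp6v1e1 and -0.0325 to 0.17 for Atp6v1h. With the replicate block, Atp6v1e1 was at -0.0033 and Atp6v1h at -0.01.

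The number of calls over the whole array, 46, was unstable. It was 8 with age as a covariate, 70 over probe sets whose mean was at least 5, 14 at an adjusted p of 0.05, 2444 at an unadjusted p of 0.05, and 8 by an ordinary t-test after adjustment (1863 at its unadjusted threshold, a count added after the data were examined). It ran from 7 to 69 when 1 array was left out, with 9, 10, 7 and 9 without controls 1 to 4 and 69, 17 and 14 without mutants 1 to 3. With the replicate block it was 1. Correlations of the deviations of same-numbered arrays were 0.335, 0.260 and 0.0878, the first 2 the highest of the 12 pairs, and mutant 3 correlated best with control 4 (0.226). Since 1 same-numbered pair was below 0.1 and the labels give the numbers no meaning, the arrays were not treated as paired, and whether they are was not settled. The cause of these shifts was not tested.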

Other observations

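The genes beside Atp6v0d2 on its chromosome, in the order of the RefSeq annotation of GRCm38.p6, were read after the data were examined. Rmdn1, Wwp1 and Slc7a13 on one side had log2 changes of 0.15, 0.03 and 0.08, and Ttpa, Ggh and Nkain3 on the other had changes of 0.07, 0.18 and 0.02. None passed limma's test (adjusted p = 0.874 to 0.968), and the groups overlapped for each of the 6. Ttpa, the tocopherol transfer protein of hepatocytes and the nearest of them on its side, was at 12.22 to 12.27 in control and at 12.21 to 12.45 in Trpm6-deficient livers.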
